A study of Homo sapiens with 16 samples.

Results

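The genes described here are 10 members of the YAP and TEAD system: the coactivators YAP1 and WWTR1, the DNA-binding partner TEAD1, and 7 genes known as YAP/TAZ targets or pathway regulators, CTGF, CYR61, ANKRD1, AMOTL1, AMOTL2, LATS2 and AXL. They were taken by symbol from a table of 57820 genes, in which CCN2 is listed as CTGF and CCN1 as CYR61. All 10 were found once, and all 10 were among the 18149 genes tested, those that reached 1 RPKM in 2 or more of the libraries. RPKM counts the reads of a gene per kilobase of its model, relative to the reads of the library.

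RNA was sequenced from the ovarian carcinoma line SK-OV-3, a human line in long use. Its cells carried 1 of 3 shRNAs against PRMT1 (shPRMT1 #1, #3 and #5) or a scrambled control hairpin (shScramble), and received cisplatin at 20 µM for 24 h or no treatment. Cisplatin is a platinum drug that crosslinks DNA, and PRMT1 is an arginine methyltransferase responsible for most asymmetric dimethylation of proteins. The 8 groups were therefore shPRMT1 #1, #3 and #5 with cisplatin, shScramble with cisplatin, untreated shPRMT1 #1, #3 and #5, and untreated shScramble, each with 2 biological replicates (16 libraries). How the replicate cultures were kept apart is not stated, so p-values measure the spread between the labelled replicates. Where the 3 shRNAs are averaged, the spread between shRNAs does not enter the SE or the p-value. An n of 6 counts libraries, 2 of each shRNA, and not independent knockdowns. By their source labels all cells carry a hairpin, so no parental cells without one stand beside them. The titles of the control libraries read Emp instead, without explanation, so the scrambled hairpin rests on the source labels alone. How the hairpins were delivered or whether clones were picked is not given in the sources used here.

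In the Hippo pathway a kinase cascade ending in LATS1 and LATS2 phosphorylates YAP and its relative TAZ (the product of WWTR1) and keeps them out of the nucleus. When the cascade is off, both coactivators enter the nucleus and bind TEAD factors, which recognise the sequence GGAATG and switch on genes such as CTGF, CYR61 and ANKRD1. Several targets act back on the pathway: LATS2 encodes one of its kinases, and AMOTL1 and AMOTL2 encode angiomotin-like proteins that hold YAP in the cytoplasm. YAP activity is controlled mostly through protein location and stability, which RNA levels do not report.

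Promoter sequence was available in the RefSeq table (GRCh38.p14) for 8 of the 10 genes, at 11 annotated starts, and not for CYR61 or TEAD1. The 250 bases before each start were searched on both strands for GGAATG (TEAD), TGANTCA (AP-1, a further family of transcription factors) and the CArG box (SRF). GGAATG was present 3 times before the CTGF start, at 169, 104 and 95 bases upstream, and 2 times before the ANKRD1 start, at 220 and 128 bases. It was present 1 time each before the YAP1 start (162 bases), the second AMOTL2 start (69 bases) and the second AXL start (212 bases). No match was found in this window for WWTR1, AMOTL1, LATS2, the first AMOTL2 start or the first AXL start. Among the 35116 promoters of the table, 11.89% held GGAATG at least once, 0.9397% held it 2 or more times and 0.08258% held it 3 or more times. The ANKRD1 window also held TGANTCA at 195 bases, a motif found in 6.573% of all windows. No window of the 8 genes held a CArG box, against 1.159% of all windows. The 3 sequences below are those of the targets with the most matches and of AMOTL2, all on the minus strand, at chr6:131951373-131951622 (CTGF), chr10:90921088-90921337 (ANKRD1) and chr3:134374448-134374697 (second start of AMOTL2). Capitals mark GGAATG, or CATTCC where the match lies on the other strand.
CTGF: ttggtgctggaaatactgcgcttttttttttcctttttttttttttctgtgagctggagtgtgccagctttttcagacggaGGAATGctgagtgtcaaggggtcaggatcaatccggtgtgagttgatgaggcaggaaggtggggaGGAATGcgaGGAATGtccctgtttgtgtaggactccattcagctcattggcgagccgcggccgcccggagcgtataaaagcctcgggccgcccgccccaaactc
ANKRD1: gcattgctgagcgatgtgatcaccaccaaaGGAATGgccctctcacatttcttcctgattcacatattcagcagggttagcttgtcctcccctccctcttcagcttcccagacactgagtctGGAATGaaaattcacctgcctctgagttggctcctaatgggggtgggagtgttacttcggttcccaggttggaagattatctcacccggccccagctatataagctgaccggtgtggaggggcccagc
AMOTL2: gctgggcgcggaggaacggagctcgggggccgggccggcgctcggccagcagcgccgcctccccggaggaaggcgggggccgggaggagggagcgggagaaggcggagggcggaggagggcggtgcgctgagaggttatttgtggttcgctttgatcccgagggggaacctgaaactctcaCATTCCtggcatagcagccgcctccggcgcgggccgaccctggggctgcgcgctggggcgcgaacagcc

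Recovered library totals ran from 12289300 to 16039735 reads, and the members drew on 80 to 5603 reads each per library. PRMT1 RNA stood at 6.61 ± 1.84 RPKM in untreated shPRMT1 cells and 21.4 ± 2.94 in untreated shScramble cells (SD, n = 6 and 2). Under cisplatin it stood at 5.90 ± 2.44 RPKM in shPRMT1 cells and 19.2 ± 1.93 in shScramble cells (SD, n = 6 and 2). The log2 differences were -1.59 (SE 0.22, adjusted p = 0.00179, limma) and -1.61 (SE 0.22, adjusted p = 0.000763, limma). Of 8 carcinoma markers, 7 had a median of at least 1 RPKM and CDH1 (E-cadherin) did not, at 0.443 RPKM. None of the 5 leukocyte markers had a median of 1 RPKM. Of the 4 endothelial markers PECAM1 was not measured here, and none of the others had such a median. The highest value of any gene was 148 RPKM, and GAPDH ran from 34.5 to 40.3 RPKM. Among gene models of at least 1 kb, no gene exceeded 1.84 reads per base, and AXL, CYR61, CTGF and ANKRD1 reached 0.937, 0.925, 0.748 and 0.698. How duplicate reads were treated is not given in the sources used here, and the part of this low upper range in the results for these genes was not tested.

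The members covered a wide range of levels in the untreated control. RPKM values, which are per length but may understate abundant genes given the low upper range above, averaged 57.5 for AXL, 37.9 for YAP1, 36.8 for WWTR1, 35.7 for CYR61, 30.8 for TEAD1, 25.4 for AMOTL2, 23.3 for CTGF, 14.9 for AMOTL1, 11.2 for LATS2 and 2.93 for ANKRD1 in untreated shScramble cells (n = 2). YAP1, WWTR1 and CYR61 lay close together, with all their single values between 34.7 and 39.2 RPKM. ANKRD1 was the lowest of the 10 there and reached 43.7 RPKM with cisplatin, a level in the range of CTGF.

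**Figure D1:**
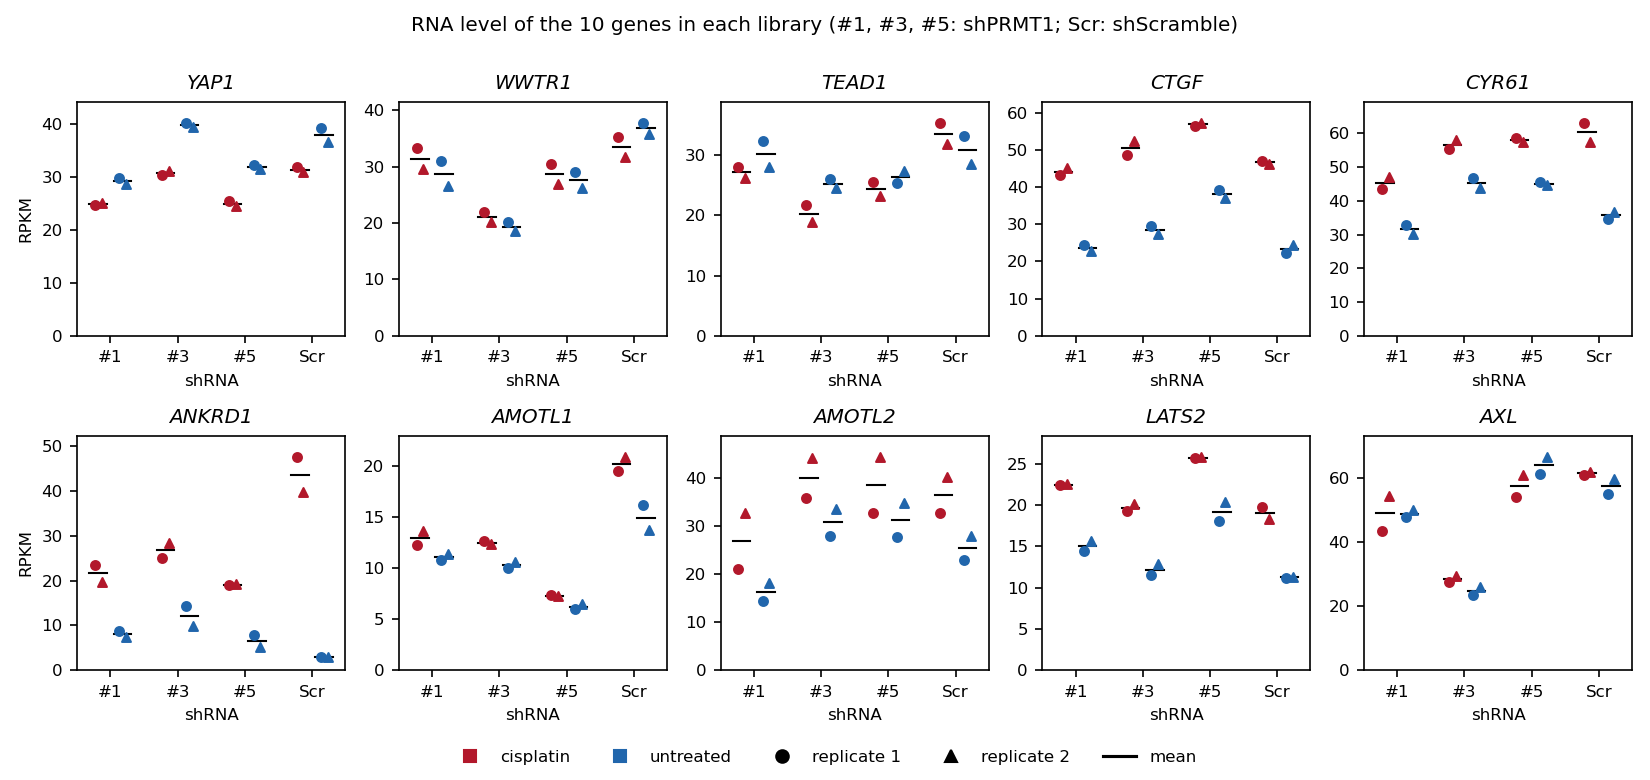
RPKM (vertical axis, from 0) of the 10 genes in each of 16 libraries, by shRNA (horizontal axis), with cisplatin (red) left of untreated (blue), circles for replicate 1, triangles for replicate 2 and a line for the mean of 2. ANKRD1 under cisplatin lay between 39.7 and 47.6 RPKM in shScramble cells, above the 19.0 to 28.5 RPKM of all shPRMT1 cells, while untreated shScramble cells were the lowest group.

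The first comparison asked what cisplatin does to these genes in control cells. In shScramble cells ANKRD1, CTGF, CYR61, LATS2 and AMOTL1 were higher with cisplatin and YAP1 was lower. Thus 5 of 10 members were called higher and 1 lower at an adjusted p under 0.05, against 15.5% of all genes tested called higher and 14.7% called lower. The median log2 difference was 0.46 over the 10 members and -0.01 over all genes tested. The members were chosen with earlier results of these data known, so such shares, here and below, are a description and not a test.

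ANKRD1, which encodes a nuclear and sarcomeric ankyrin repeat protein (ENSG00000148677.6, chromosome 10, 92671852 to 92681033, minus strand, GRCh37 as in the table), changed the most. It measured 47.6 and 39.7 RPKM in the 2 cisplatin libraries of shScramble cells, against 3.00 and 2.87 RPKM in the untreated ones. The groups were far apart: the mean with cisplatin was 14.9 times the untreated mean, and the lowest of these values still rested on 80 reads. The log2 difference, on the log2(RPKM + 1) scale that understates changes of low genes, was 3.50 (SE 0.20, adjusted p = 7.45e-07, limma).

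CTGF and CYR61 encode secreted matricellular proteins of one family. CTGF (ENSG00000118523.5, chromosome 6, 132269315 to 132272513, minus strand) measured 47.0 and 46.3 RPKM with cisplatin, against 22.3 and 24.3 RPKM untreated, in shScramble cells. CYR61 (ENSG00000142871.11, chromosome 1, 86046443 to 86049645, plus strand) measured 63.0 and 57.5 RPKM with cisplatin, against 34.7 and 36.7 RPKM untreated. Neither gene's groups overlapped, and the log2 differences were 0.97 (SE 0.07, adjusted p = 2.45e-06) for CTGF and 0.74 (SE 0.07, adjusted p = 1.81e-05) for CYR61 in limma.

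Of the pathway regulators, LATS2 (ENSG00000150457.7, chromosome 13, 21547170 to 21635686, minus strand) measured 19.8 and 18.3 RPKM with cisplatin, against 11.2 and 11.3 RPKM untreated. This was a log2 difference of 0.71 (SE 0.08, adjusted p = 9.31e-05, limma), with groups well apart. AMOTL1 (ENSG00000166025.13, chromosome 11, 94439596 to 94609918, plus strand) measured 19.5 and 20.9 RPKM with cisplatin, against 16.2 and 13.7 RPKM untreated. Its log2 difference was 0.42 (SE 0.10, adjusted p = 0.00731, limma). The AMOTL1 call was lost when replicate 2 of shScramble was left out, either untreated or treated (adjusted p = 0.0626 to 0.0732) and with only the compared libraries in the model (0.0609). AMOTL2 (ENSG00000114019.10, chromosome 3, 134074715 to 134094321, minus strand) measured 32.8 and 40.3 RPKM with cisplatin, against 22.9 and 27.997 RPKM untreated. Replicate 2 was above replicate 1 in both conditions, and AMOTL2 was not called (log2 difference 0.51, adjusted p = 0.131, limma) unless the replicate number was kept as a block (adjusted p = 0.000348).

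RNA of neither coactivator was higher with cisplatin. YAP1 (ENSG00000137693.9, chromosome 11, 101981191 to 102104154, plus strand) measured 31.9 and 30.9 RPKM with cisplatin, against 39.2 and 36.6 RPKM untreated, in shScramble cells. It fell by 0.27 on the log2 scale (SE 0.06, adjusted p = 0.00444, limma). WWTR1 (ENSG00000018408.10, chromosome 3, 149235021 to 149454501, minus strand) measured 35.2 and 31.6 RPKM with cisplatin, against 37.8 and 35.9 RPKM untreated, just without overlap. Its log2 difference of -0.14 (95% interval -0.37 to 0.09) was not called (adjusted p = 0.378, limma), but was with the replicate block (adjusted p = 0.0305).

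TEAD1 (ENSG00000187079.10, chromosome 11, 12695968 to 12966298, plus strand) gave a log2 difference of 0.12 (95% interval -0.12 to 0.36) and was not called. AXL, a receptor tyrosine kinase (ENSG00000167601.7, chromosome 19, 41725107 to 41767671, plus strand), gave 0.10 (95% interval -0.13 to 0.33) and was not called either.

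Gene span moved with the cisplatin response across the table. In shScramble cells, cisplatin lowered 42.1% and raised 10.3% of the genes spanning 100 kb or more, and lowered 8.44% and raised 14.1% of those spanning under 20 kb. TEAD1, WWTR1, AMOTL1 and YAP1 span 270, 219, 170 and 123 kb, while CTGF and CYR61 span 3.20 kb each and ANKRD1 9.18 kb. The part of gene span in the members' results was not tested.

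The second comparison asked the same of cells with PRMT1 knocked down. In shPRMT1 cells, averaged over the 3 shRNAs, cisplatin raised 6 members and lowered 2, against 30.4% of all genes called higher and 23.6% called lower. The median log2 difference was 0.31 over the members and 0.04 over all genes. The 6 higher members were CTGF, CYR61, ANKRD1, LATS2, AMOTL1 and AMOTL2, and the 2 lower ones were YAP1 and TEAD1.

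CTGF ran from 43.2 to 57.2 RPKM (median 50.5) in the 6 treated shPRMT1 libraries, against 22.9 to 39.3 RPKM (median 28.4) in the 6 untreated ones. CYR61 ran from 43.4 to 58.6 RPKM (median 56.4) with cisplatin, against 30.3 to 46.9 RPKM (median 44.2) untreated. The ranges were apart for CTGF and overlapped for CYR61, whose level differed between shRNAs. The log2 differences were 0.75 (SE 0.04, adjusted p = 5.98e-08) for CTGF and 0.39 (SE 0.04, adjusted p = 8.89e-06) for CYR61 in limma.

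ANKRD1 measured 23.6 and 19.8 RPKM in treated #1 cells, against 8.76 and 7.31 RPKM untreated. It measured 25.0 and 28.5 RPKM in treated #3 cells, against 14.4 and 9.78 RPKM untreated, and 19.0 and 19.1 RPKM in treated #5 cells, against 7.91 and 5.25 RPKM untreated. All 6 treated libraries lay above all 6 untreated ones, with a mean 2.53 times as high. The log2 difference was 1.29 (SE 0.11, adjusted p = 3.63e-06, limma).

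LATS2 gave a log2 difference of 0.54 (SE 0.05, adjusted p = 3.67e-06), AMOTL2 0.44 (SE 0.13, adjusted p = 0.0161) and AMOTL1 0.22 (SE 0.06, adjusted p = 0.00612), all in limma. Within each replicate number and shRNA, the cisplatin level of LATS2 was 1.27 to 1.67 times the untreated level, that of AMOTL2 1.18 to 1.80 times and that of AMOTL1 1.12 to 1.27 times. These regulators were therefore higher with cisplatin in each of the 6 pairs.

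YAP1 was lower with cisplatin in each of the 6 shPRMT1 pairs. It ran from 24.5 to 31.0 RPKM (median 25.2) with cisplatin, against 28.7 to 40.2 RPKM (median 31.8) untreated, in shPRMT1 cells. The ranges overlapped, but within a replicate number and shRNA the treated level was 0.754 to 0.873 times the untreated one. The log2 difference was -0.31 (SE 0.03, adjusted p = 1.27e-05, limma), and in this comparison 66.7% of genes spanning 100 kb or more and 12.3% of those under 20 kb were called lower, and 9.92% and 34.4% higher.

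TEAD1 ran from 18.9 to 28.1 RPKM (median 24.3) with cisplatin, against 24.4 to 32.3 RPKM (median 26.7) untreated, and its log2 difference was -0.19 (SE 0.06, adjusted p = 0.0248, limma). That call was lost without any 1 of 6 libraries, namely untreated #1 replicate 1, #3 replicate 1 or #5 replicate 2, or cisplatin replicate 2 of #1, #3 or #5 (adjusted p = 0.0529 to 0.0745). WWTR1 gave 0.10 (SE 0.06, adjusted p = 0.197), and 0.00658 with the replicate block. AXL gave 0.02 (95% interval -0.12 to 0.15), was not called, and changed sign to -0.01 under median-of-ratios scaling.

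**Figure D2:**
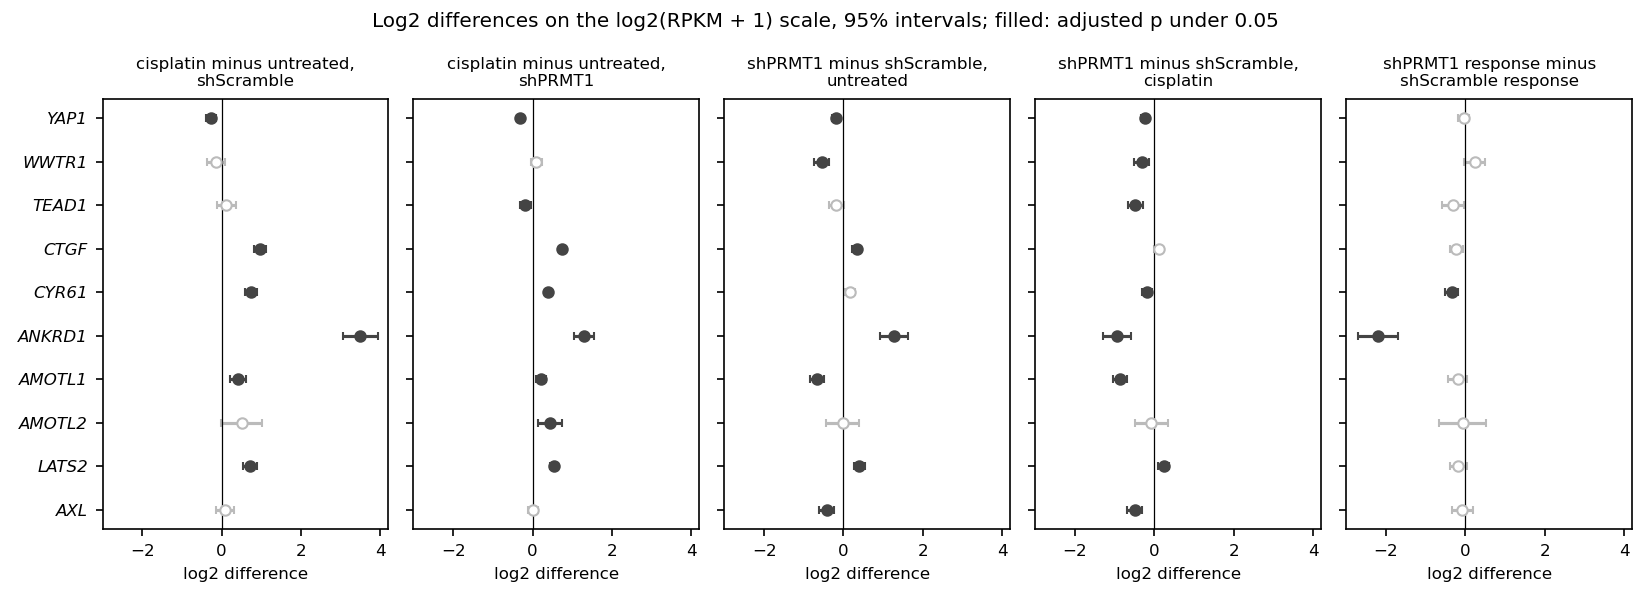
Log2 differences on the log2(RPKM + 1) scale (horizontal axis) with 95% intervals for the 10 genes in 5 comparisons, filled where the adjusted p (limma) was under 0.05. ANKRD1 stands apart in the first panel at 3.50 and in the last at -2.21.

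Whether the cisplatin response differed between knockdown and control cells was tested by the difference between both responses. ANKRD1 and CYR61 responded less in shPRMT1 cells, so 2 of 10 members were called lower and none higher, against 3.11% of all genes called lower and 2.08% called higher. None was higher at an unadjusted p under 0.05 in limma or called with voom on recovered reads, while the replicate block gave 1 such call, WWTR1. The median over the members was -0.19, and over all genes 0.02.

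For ANKRD1 the cisplatin level was 2.69 and 2.71 times the untreated level with #1, 1.74 and 2.91 times with #3, and 2.40 and 3.64 times with #5. In shScramble cells it was 15.9 and 13.8 times. Every shPRMT1 ratio lay far below both shScramble ratios. The difference between responses was -2.21 (SE 0.23, adjusted p = 0.000976, limma), with -2.17 for #1, -2.39 for #3 and -2.07 for #5 (adjusted p = 0.00664, 0.00366 and 0.00436, limma). Of all genes, 0.975%, 1.96% and 2.18% were called lower in these single-shRNA differences. The averaged call held under each left-out library and each other setting tried, while that of #1 was lost with only the compared groups in the model (0.0649).

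For CYR61 the cisplatin level was 1.18 to 1.55 times the untreated level in the 6 shPRMT1 pairs, and 1.82 and 1.57 times in shScramble cells. The difference between responses was -0.35 (SE 0.08, adjusted p = 0.0311, limma), close to the threshold. It was lost in 9 of 16 cases of a left-out library (adjusted p = 0.0521 to 0.186), the exceptions being both replicates of untreated and of treated #1, replicate 2 of untreated #3 and #5, and replicate 2 of treated shScramble. It was also lost with no filter on low values (0.0592) and with voom on recovered reads (0.0524).

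CTGF gave -0.23 (SE 0.08, adjusted p = 0.128), LATS2 -0.17 (95% interval -0.39 to 0.04), AMOTL1 -0.20 (95% interval -0.44 to 0.05), AMOTL2 -0.06 (95% interval -0.65 to 0.53), AXL -0.08 (95% interval -0.35 to 0.18) and YAP1 -0.04 (95% interval -0.19 to 0.10), none called. With the replicate block, WWTR1 was called higher (0.23, adjusted p = 0.0152) and TEAD1 lower (-0.31, adjusted p = 0.0333). Without it they were not called (adjusted p = 0.334 and 0.204, limma). For WWTR1 the treated level was 1.03 to 1.11 times the untreated level in shPRMT1 cells, and 0.933 and 0.883 times in shScramble cells. The signs thus lay on opposite sides, but the changes were small.

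**Figure D3:**
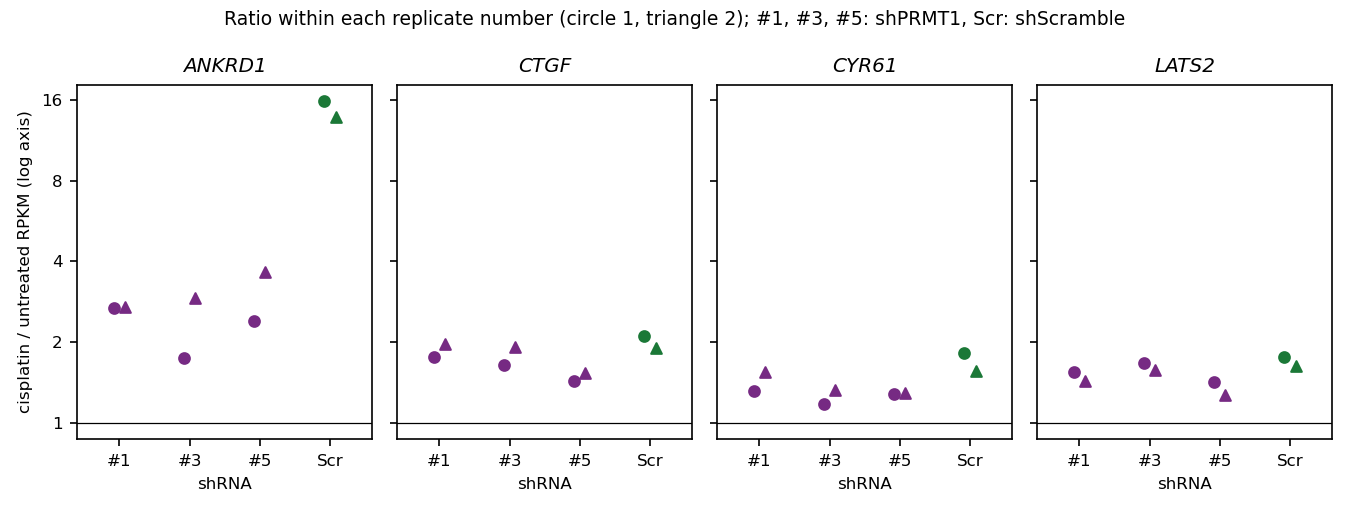
Cisplatin over untreated RPKM (vertical log axis) for ANKRD1, CTGF, CYR61 and LATS2, by shRNA, each point 1 replicate number, with shPRMT1 (purple) left of shScramble (green) and a line at 1. All points lie above 1, and the shScramble points of ANKRD1, at 15.9 and 13.8, stand clear of its shPRMT1 points, at 1.74 to 3.64.

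The next comparison asked what PRMT1 knockdown does to these genes without the drug. In untreated cells 3 members were higher in shPRMT1 than in shScramble cells, ANKRD1, LATS2 and CTGF, and 4 were lower, AMOTL1, WWTR1, AXL and YAP1. Over all genes, 4.41% were called higher and 3.83% lower. The median was -0.10 over the members and 0 over all genes. The untreated shScramble libraries are shared with the comparisons above, so these results are not independent of them.

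ANKRD1 averaged 8.90 ± 3.09 RPKM in untreated shPRMT1 cells (n = 6, lowest value 5.25) and 2.93 ± 0.0879 RPKM in untreated shScramble cells (SD, n = 2). The groups did not overlap, and the mean was 3.03 times as high (log2 difference 1.28, SE 0.16, adjusted p = 0.00122, limma). The means were 8.03, 12.1 and 6.58 RPKM for #1, #3 and #5.

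LATS2 averaged 15.5 ± 3.30 RPKM in untreated shPRMT1 cells and 11.2 ± 0.0300 RPKM in untreated shScramble cells (SD, n = 6 and 2). The lowest shPRMT1 value, 11.5 RPKM, was just above the control (log2 difference 0.40, SE 0.07, adjusted p = 0.00542, limma). CTGF averaged 30.1 ± 6.71 RPKM in shPRMT1 cells and 23.3 ± 1.40 RPKM in shScramble cells (SD, n = 6 and 2; log2 difference 0.33, SE 0.05, adjusted p = 0.00500, limma). The CTGF groups overlapped: #1 stood at 23.7 RPKM, next to the control, and #5 at 38.2 RPKM.

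AMOTL1 averaged 9.20 ± 2.35 RPKM in untreated shPRMT1 cells and 14.9 ± 1.76 RPKM in untreated shScramble cells (SD, n = 6 and 2). No values overlapped, and the means were 11.1, 10.3 and 6.23 RPKM for #1, #3 and #5 (log2 difference -0.67, SE 0.08, adjusted p = 0.000753, limma). WWTR1 averaged 25.2 ± 4.93 RPKM in shPRMT1 cells and 36.8 ± 1.34 RPKM in shScramble cells (SD, n = 6 and 2), also without overlap (log2 difference -0.55, SE 0.09, adjusted p = 0.00354, limma). AXL gave -0.42 (SE 0.08, adjusted p = 0.0130, limma), although #5 stood at 64.1 RPKM against 57.5 RPKM in shScramble cells. YAP1 was 33.6 ± 4.93 RPKM in shPRMT1 cells and 37.9 ± 1.85 RPKM in shScramble cells (SD, n = 6 and 2; log2 difference -0.18, SE 0.05, adjusted p = 0.0357, limma), with #3 above the control at 39.7 RPKM.

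Several of these untreated calls depended on the pair of control libraries. The calls of LATS2 and AXL were lost without either untreated shScramble replicate (adjusted p = 0.0580 to 0.0646 and 0.0614 to 0.171), and those of CTGF (0.0759) and WWTR1 (0.0559) without replicate 1. The YAP1 call was lost in 11 of 16 cases (0.0516 to 0.299), all but those without untreated #5 replicate 1 or any treated #1 or #5 library, and also under median-of-ratios scaling (0.0647). With only the untreated libraries in the model, CTGF (0.0509), LATS2 (0.0509) and YAP1 (0.113) were not called. CYR61 gave 0.17 (SE 0.06, adjusted p = 0.101, limma) and was called higher with the replicate block (0.0458). TEAD1 gave -0.18 (95% interval -0.37 to 0.02) and AMOTL2 -0.02 (95% interval -0.44 to 0.40), neither called. The averages of AMOTL2 and CYR61 joined opposite signs. For #1, #3 and #5 in turn, AMOTL2 gave -0.62, 0.27 and 0.29, and CYR61 -0.17, 0.34 and 0.33. CYR61 was called higher with #3 and #5, but not with only the compared groups in the model (adjusted p = 0.1306 and 0.1165, limma). AMOTL2 was called with each shRNA under the replicate block (0.000449, 0.0326 and 0.0187, limma).

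Under cisplatin the balance turned to lower values in the knockdown. In treated cells 7 of 10 members were lower in shPRMT1 than in shScramble cells, ANKRD1, AMOTL1, AXL, TEAD1, WWTR1, YAP1 and CYR61, and LATS2 was higher. Over all genes, 9.36% were called lower and 10.4% higher. The median was -0.27 over the members and 0.02 over all genes.

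ANKRD1 averaged 22.5 ± 3.86 RPKM in treated shPRMT1 cells and 43.7 ± 5.55 RPKM in treated shScramble cells (SD, n = 6 and 2). The highest shPRMT1 value, 28.5 RPKM, was below both shScramble values (log2 difference -0.94, SE 0.16, adjusted p = 0.00284, limma). ANKRD1 was thus higher than the control in untreated knockdown cells and lower than it in treated ones. The call under cisplatin was lost without shScramble cisplatin replicate 1 (-0.81, adjusted p = 0.0607).

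AMOTL1 averaged 10.9 ± 2.86 RPKM in treated shPRMT1 cells and 20.2 ± 0.945 RPKM in treated shScramble cells (SD, n = 6 and 2; log2 difference -0.87, SE 0.08, adjusted p = 9.54e-05, limma). The groups did not overlap, and the call held under each left-out library. TEAD1 averaged 23.9 ± 3.35 RPKM in shPRMT1 cells and 33.5 ± 2.50 RPKM in shScramble cells (SD, n = 6 and 2; log2 difference -0.48, SE 0.09, adjusted p = 0.00370, limma), again without overlap. AXL gave -0.50 (SE 0.08, adjusted p = 0.00248), WWTR1 -0.32 (SE 0.09, adjusted p = 0.0251), YAP1 -0.23 (SE 0.05, adjusted p = 0.00662) and CYR61 -0.18 (SE 0.06, adjusted p = 0.0411) in limma. AXL did not overlap between the groups, by a narrow margin (highest shPRMT1 value 61.08 RPKM, lowest shScramble value 61.12 RPKM), while WWTR1, YAP1 and CYR61 did. The size of these averaged differences depended on the shRNA. For #1, #3 and #5 in turn, AXL gave -0.33, -1.08 and -0.10, and CYR61 -0.41, -0.09 and -0.05. WWTR1 gave -0.09, -0.64 and -0.22, and YAP1 -0.32, -0.03 and -0.32.

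LATS2 averaged 22.6 ± 2.73 RPKM in treated shPRMT1 cells and 19.1 ± 0.998 RPKM in treated shScramble cells (SD, n = 6 and 2; log2 difference 0.23, SE 0.07, adjusted p = 0.0358, limma). This too depended on the shRNA, with 0.23 for #1, 0.05 for #3 and 0.42 for #5. CTGF gave 0.10 (95% interval -0.02 to 0.22) and AMOTL2 -0.08 (95% interval -0.50 to 0.33), neither called. These averages joined opposite signs: CTGF gave -0.08, 0.11 and 0.28 and AMOTL2 -0.45, 0.13 and 0.07 for #1, #3 and #5 in turn. The calls of YAP1 (0.0959) and TEAD1 (0.0754) were lost without shScramble cisplatin replicate 1, and that of WWTR1 without either of these replicates or treated #3 replicate 2 (0.0560 to 0.261). The LATS2 call was lost without any treated shScramble, #3 or #5 library (0.0571 to 0.277) and under median-of-ratios scaling (0.127). The CYR61 call was lost in 13 of 16 cases (0.0508 to 0.394), all but those without untreated #1 replicate 1 or 2 or treated #1 replicate 2. Its value ran from -0.25 to -0.12. With only the treated libraries in the model, WWTR1 (0.0684), LATS2 (0.0652) and CYR61 (0.0991) were not called, and CYR61 was not called with no filter on low values (0.0840) or with voom (0.0593).

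The 3 shRNAs did not give the same levels. A limma F-test among #1, #3 and #5 called 9 of 10 members in untreated cells, all but TEAD1, against 22.5% of all genes. Under cisplatin it called 7 of 10, all but ANKRD1, TEAD1 and AMOTL2, against 11.3% of all genes. With the replicate block TEAD1 was called in both conditions (adjusted p = 0.00518 treated and 0.0395 untreated) and AMOTL2 under cisplatin (0.000646). With only the compared libraries in the model, none of the 10 was called under cisplatin and 5 were called untreated. Untreated, the ANKRD1 call was lost in 10 of 16 cases of a left-out library (0.0515 to 0.230) and that of AMOTL2 without #1 replicate 1, #3 replicate 2 or #5 replicate 2 (0.0561 to 0.176). Under cisplatin, calls were lost for YAP1 without either #3 library (0.0624 to 0.0960), for CTGF without #1 replicate 1 or either #5 library (0.0575 to 0.0782), for CYR61 without #1 replicate 1 (0.0699) and for LATS2 in 8 cases (0.0545 to 0.173).

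AXL differed most clearly. It measured 27.7 and 29.6 RPKM in treated #3 cells and 23.5 and 26.1 RPKM in untreated #3 cells. In all other groups, knockdown and control, it ran from 43.7 to 66.7 RPKM, so #3 stood alone (F-test adjusted p = 0.000939 treated and 5.77e-05 untreated, limma). WWTR1 was also lowest with #3, at 21.1 RPKM treated and 19.3 RPKM untreated, while the other 6 groups averaged 27.6 to 36.8 RPKM (adjusted p = 0.0143 treated and 0.00605 untreated, limma). The WWTR1 call was lost without either treated #3 library (0.0565 to 0.115) in treated cells and without untreated #3 replicate 2 (0.0624) in untreated cells.

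AMOTL1 was lowest with #5, at 7.28 RPKM treated and 6.23 RPKM untreated. #1 and #3 stood at 13.0 and 12.5 RPKM treated and at 11.1 and 10.3 RPKM untreated (adjusted p = 0.00150 treated and 0.000726 untreated, limma). CTGF and LATS2 were highest with #5, at 56.8 and 25.7 RPKM treated and at 38.2 and 19.2 RPKM untreated. YAP1 was highest with #3, at 30.6 RPKM treated and 39.7 RPKM untreated, near the shScramble means of 31.4 RPKM treated and 37.9 RPKM untreated. PRMT1 itself averaged 8.26 RPKM treated and 8.44 RPKM untreated with #5 and 4.13 RPKM treated and 5.19 RPKM untreated with #3, a difference among shRNAs that was not called (adjusted p = 0.145 treated and 0.237 untreated, limma) unless the replicate number was kept as a block (0.0113 treated and 0.0297 untreated). With 3 shRNAs, no relation between PRMT1 and the members was computed.

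The order of groups also differed between genes. For ANKRD1 all 4 treated groups stood above all 4 untreated ones, from 43.7 RPKM in treated shScramble to 2.93 in untreated shScramble, and only the neighbours #1 and #5 untreated overlapped. For CTGF the treated groups again held the first 4 places, from 56.8 RPKM (#5) to 44.1 RPKM (#1), and no neighbours overlapped apart from untreated #1 and shScramble. For CYR61 treated shScramble, #5 and #3 led with overlapping values (60.3, 58.0 and 56.6 RPKM), and treated #1 (45.2 RPKM) fell among the untreated groups. For TEAD1 each group overlapped the next except at the lowest, treated #3, at 20.3 RPKM. For AMOTL2 each overlapped the next except at the lowest, untreated #1, at 16.3 RPKM.

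The other pathway genes were described by 2 lists, also chosen with earlier results of these data known. Of 25 other Hippo and TEAD genes 24 were tested (AMOT was not), and of 22 other YAP/TAZ target genes 20 were tested (FJX1 and AREG were not). In shScramble cells 6 were higher and 1 lower with cisplatin of the 24 pathway genes, and 7 higher and 4 lower of the 20 targets, with list medians of 0.07 and 0.11 beside -0.01 for all genes. Over all genes 15.5% were called higher and 14.7% lower, a share near that of the targets called lower. FRMD6, an upstream FERM domain protein of the pathway, averaged 32.2 RPKM with cisplatin and 12.0 RPKM untreated (log2 difference 1.36, SE 0.08, adjusted p = 1.32e-06, limma). AJUBA, a LIM protein that binds LATS kinases, rose by 0.41 (SE 0.06), and VGLL3, a TEAD cofactor, by 1.06 (SE 0.16). The atypical cadherin FAT1 fell by 0.54 (SE 0.15, adjusted p = 0.0162, limma), a call lost without untreated replicate 1 or either cisplatin replicate (0.0722 to 0.123).

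Among the targets, TGFB2, a growth factor of the TGF-beta family, averaged 20.4 RPKM with cisplatin and 4.29 RPKM untreated in shScramble cells (log2 difference 2.004, SE 0.15, adjusted p = 5.27e-06, limma). GADD45A, a stress-response gene, rose by 1.33 (SE 0.09). The collagen gene COL8A1 fell to 3.96 RPKM with cisplatin, against 14.1 RPKM untreated (log2 difference -1.61, SE 0.10, adjusted p = 1.00e-06, limma). RBMS3, which encodes an RNA-binding protein and spans 729 kb, stood at 0.195 RPKM with cisplatin and 1.63 RPKM untreated, and IGFBP3, an insulin-like growth factor binding protein, fell by 0.42 (SE 0.08).

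In shPRMT1 cells cisplatin raised 6 and lowered 8 of the 24 pathway genes and raised 8 and lowered 9 of the 20 targets, with medians of -0.10 and 0.00 beside 0.04 for all genes. Over all genes 30.4% were called higher and 23.6% lower, so the count of pathway genes called higher is no larger than the background. FRMD6 (0.58), VGLL3 (0.59) and the scaffold gene SAV1 (0.46) rose. The kinase genes TAOK3 (-0.85) and STK3 (-0.88) and the factor TEAD2 (-0.42) were lower. Of the targets, GADD45A (0.83) and the transcription factor gene FOXF2 (0.48) were higher, and COL8A1 (-1.71), RBMS3 (-1.41) and the GTPase regulator ASAP1 (-0.60) were lower. These log2 differences had an adjusted p of at most 0.000665 in limma.

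In the difference between responses, 2 of the 24 pathway genes were called lower and none higher, against 3.11% of all genes called lower and 2.08% called higher. At an unadjusted p under 0.05 in limma, 7 were lower and 0 higher. FRMD6 responded less in shPRMT1 cells (-0.78, SE 0.10, adjusted p = 0.00222, limma), and TAOK3 gave -0.56 (SE 0.12, adjusted p = 0.0241, limma). Of the 20 targets, 5 were called lower and 1 higher. TGFB2 gave -1.28 (SE 0.18, adjusted p = 0.00373), NUAK2, a kinase gene, -1.44 (SE 0.27, adjusted p = 0.0158), ASAP1 -0.74 (SE 0.13, adjusted p = 0.0122) and IGFBP3 0.41 (SE 0.09, adjusted p = 0.0285) in limma. The list medians were -0.14 and -0.23 beside 0.02 for all genes. The calls of FRMD6 and TGFB2 held under each left-out library. The others were lost without shScramble cisplatin replicate 1 and 1 to 6 further libraries each (0.0508 to 0.155), namely shScramble untreated replicate 2 (TAOK3, ASAP1, IGFBP3), untreated replicate 1 and cisplatin replicate 2 (NUAK2, IGFBP3), untreated #3 replicate 1 (TAOK3), untreated and treated #3 replicate 2 (TAOK3, IGFBP3) and treated #5 replicate 1 (IGFBP3). IGFBP3 was also not called with no filter (0.0523) or under median-of-ratios scaling (0.0580).

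**Figure D4:**
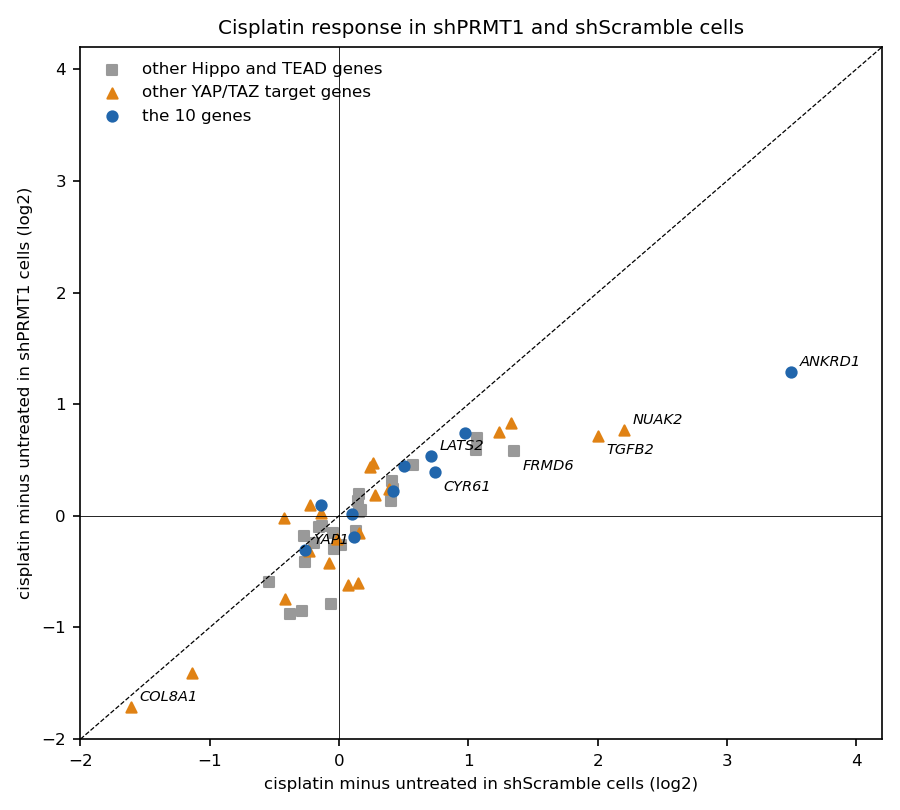
Log2 difference between cisplatin and untreated cells in shPRMT1 cells (vertical axis, mean of 3 shRNAs) against that in shScramble cells (horizontal axis) for the 10 genes (circles), 24 other Hippo and TEAD genes (squares) and 20 other YAP/TAZ targets (triangles), with equal responses on the dashed line. ANKRD1 (1.29 against 3.50), TGFB2 (0.72 against 2.004) and FRMD6 (0.58 against 1.36) lie below the line, and COL8A1 (-1.71 against -1.61) lies near it.

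Without drug, knockdown cells were higher in 2 and lower in none of the pathway genes (0 lower at an unadjusted p under 0.05, limma), FRMD6 (0.33, adjusted p = 0.0142, limma) and AJUBA (0.19, adjusted p = 0.0389, limma). They were higher in 4 and lower in 5 of the targets, GADD45A (0.45) and TGFB2 (0.48) among the higher and EDN1, the endothelin 1 gene (-0.52), IGFBP3 (-0.33) and THBS1, the thrombospondin 1 gene (-0.27), among the lower. The medians were 0.02 and -0.04 beside 0 for all genes, of which 4.41% were called higher and 3.83% lower. The counts of pathway genes are close to that share. The call of EDN1 held under each left-out library. Those of GADD45A, TGFB2, AJUBA, IGFBP3 and THBS1 were lost without either untreated shScramble replicate, that of FRMD6 without replicate 2, and those of AJUBA and TGFB2 in 13 and 9 of 16 cases in all (0.0564 to 0.317 over these genes). With only the untreated libraries in the model FRMD6 (0.0814), AJUBA (0.121), TGFB2 (0.105) and THBS1 (0.0509) were not called. Under median-of-ratios scaling AJUBA (0.0769) and TGFB2 (0.0562) were not called, nor was TGFB2 with no filter (0.0686) or with voom (0.0611).

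Under cisplatin 6 pathway genes were lower in shPRMT1 cells and none higher (1 at an unadjusted p under 0.05, limma), led by FRMD6 (-0.45), TAOK3 (-0.53) and WWC1, an activator of LATS kinases (-0.92). Among the targets 9 were lower, led by EDN1 (-0.66), CRIM1 (-0.56) and THBS1 (-0.46), and 3 higher, among them FOXF2 (0.28) and NT5E, the CD73 gene (0.26). The medians were -0.10 and -0.29 beside 0.02 for all genes, of which 9.36% were called lower and 10.4% higher. The count of targets called higher is close to that share. The 6 genes named as lower kept their calls without each library in turn. FOXF2 lost its call without either shScramble cisplatin replicate (0.0759 to 0.190), and NT5E without either of these replicates or treated replicate 1 of #3 or #5 (0.0537 to 0.258). NT5E was also not called with no filter (0.0580), under median-of-ratios scaling (0.0981) or with only the treated libraries in the model (0.107).

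Similarity over the 16 libraries was measured by Pearson's r on log2(RPKM + 1) and is a description, since the points share groups and replicate numbers. Over the 45 pairs of members and all 16 libraries, CTGF and CYR61 were the most alike (r = 0.90), followed by CTGF and LATS2 (0.88), CYR61 and AMOTL2 (0.83), and WWTR1 and AXL (0.80). Within treated and untreated libraries in turn, these pairs gave 0.59 and 0.81, 0.56 and 0.70, 0.69 and 0.81, and 0.81 and 0.80. WWTR1 and TEAD1 gave 0.93 and 0.76 there (pooled 0.74), and CTGF and AMOTL1 -0.75 and -0.95 (pooled -0.12). YAP1 and LATS2 ran opposite to each other (-0.88), also within the 8 treated (-0.87) and the 8 untreated (-0.74) libraries. For ANKRD1 and CTGF the pooled value of 0.78 came with -0.40 in treated and 0.30 in untreated libraries.

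Among 10071 other genes that averaged 5 RPKM or more, the most alike to ANKRD1 were CD83 (r = 0.99) and TAF4B (0.95), and to CYR61 TGFB2 (0.96) and PELI1 (0.96). CTGF ran with C3orf52 (0.97), and LATS2 with DCBLD1 (0.97) and NKAP (0.96). YAP1 ran with RASSF6 and ADAM23 (0.97 each), WWTR1 with NASP (0.96) and ZNF326 (0.95), and TEAD1 with ARID4B (0.94) and TTF2 (0.93). AMOTL1 ran with SH2D4A (0.95) and CBR3 (0.92), AMOTL2 with SYDE1 and ZNF319 (0.95 each), and AXL with DDX23 and ADA (0.95 each).

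Genes used as markers of other cell types also moved with cisplatin in this cultured line. Of 6 fibroblast genes, 4 had a median of at least 1 RPKM (COL1A1, COL1A2, COL3A1 and LUM). Their list summed to 21.6 to 47.8 RPKM in treated shPRMT1 libraries and 18.5 to 21.2 RPKM in treated shScramble libraries. It summed to 50.004 to 79.0 RPKM in untreated shPRMT1 libraries and 53.5 to 65.7 RPKM in untreated shScramble libraries. The medians were 15.4, 8.17, 6.07 and 13.6 RPKM for COL1A1, COL1A2, COL3A1 and LUM. DCN and PDGFRA stayed near 0, with medians of 0.254 and 0.0522 RPKM. The leukocyte list summed to 2.43 to 6.10 RPKM in treated shPRMT1 libraries and at most 1.45 RPKM in any other library. CD3E had a median of 0 RPKM and the pan-leukocyte gene PTPRC of 0.0521 RPKM, while CD14 and CD79A reached 2.51 and 3.05 RPKM. The part of these genes in the members' results was not tested. All libraries came from the same carcinoma line, and bulk RNA cannot tell whether all its cells or only some carried these RNAs.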

How the data were processed

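RNA was extracted with an RNeasy kit and libraries were made with TruSeq v2, per the labels' protocols. HISAT2, DESeq2, GRCh37 and mm9 are named per the submitters' processing notes, with no version or role. The authors deposited 1 table of RPKM values for 57820 genes in 16 libraries. Whole reads were recovered from the RPKM steps for 40649 of 40649 genes above 0 (100%, tolerance 0.01 reads). Strand use in counting is not given in the sources used here, so overlapping genes cannot be told apart; the highest mean of a gene overlapping a member was 1.62 RPKM (in AXL).

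Genes with at least 1 RPKM in 2 libraries (18149) were tested on log2(RPKM + 1) with limma 3.58.1 (trended prior, R 4.3.3) in 1 model of 8 group means, with Benjamini-Hochberg adjustment over all genes per comparison and calls at 0.05. The shRNAs were compared by limma's moderated F-test. The fit was tested on simulated data drawn without an effect of the replicate number, so that test does not bear on the pairing described below. The members and lists were chosen with earlier results of these data known. All members and PRMT1 were named, up to 3 called genes per direction and list with the lowest adjusted p, and the 2 genes most alike to each member. Some genes that this rule names are not reported here. Replicate 1 minus replicate 2 correlated at 0.30 to 0.70 over 28 pairs of groups, so the numbers were read as pairs for the ratios. The main model and its p-values left this pairing out. Among the alternatives only the replicate block took it in. Alternatives were another pseudocount, other filters, median-of-ratios scaling, voom, the compared groups alone, the replicate block and each library left out.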

Additional observations from a re-analysis of the deposited data

Results flagged for a closer look

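The cisplatin response differed between shPRMT1 and shScramble cells, by a limma test of the difference itself, for ANKRD1 averaged over the 3 shRNAs (-2.213 on the log2 scale) and for each shRNA alone (-2.172 with #1, -2.394 with #3 and -2.073 with #5). It differed for CYR61 averaged over the shRNAs (-0.3477) and with #3 (-0.4244), and for CTGF with #5 (-0.4119). The single-shRNA differences of CYR61 and CTGF had adjusted p-values of 0.0411 and 0.0399 in limma and were lost in 11 and 12 of 16 cases of a left-out library. They were also lost with no filter (adjusted p = 0.0774 and 0.0609), with voom (0.0641 and 0.0626) and with only the compared groups in the model (0.0687 and 0.109). CYR61 with #5 gave a similar difference (-0.38) that was not called (adjusted p = 0.0585, limma) but was with the replicate block (0.0225). For ANKRD1 with #1 the call was lost with only the compared groups (0.0649). Each of the 10 genes was checked for a single outlying library in the 6 treated and the 6 untreated shPRMT1 libraries, and none of these 20 sets had one. The sets pool the 3 shRNAs, whose levels differed, so a library that departs from its own shRNA could be missed. The shScramble libraries were not checked. The causes of these differences were not tested.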

How the results depend on the processing

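With the replicate block, members lower with cisplatin in shScramble cells numbered 2, and 1 member had a higher response in shPRMT1 cells; all genes called numbered 3688 for knockdown untreated, 6288 under cisplatin and 2537 for the difference between responses. With only the groups compared, members higher in the knockdown numbered 1 untreated and 0 under cisplatin, all genes called 707 and 1859, and members differing among shRNAs 5 and 0. Median-of-ratios scaling gave 0 members higher in the knockdown under cisplatin and AXL -0.010 with cisplatin in shPRMT1 cells. No filter and voom each left 1 member with a lower response.

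Over left-out libraries, members called higher, members called lower and all genes called ranged over 4 to 5, 1 to 1 and 3579 to 6070 for cisplatin in shScramble cells, and 6 to 6, 1 to 2 and 8990 to 10157 in shPRMT1 cells. They ranged over 1 to 3, 1 to 4 and 371 to 1800 for knockdown untreated, 0 to 1, 2 to 7 and 1103 to 4094 under cisplatin, and 0 to 0, 1 to 2 and 199 to 1070 for the difference between responses. Members differing among shRNAs ranged over 7 to 9 untreated and 4 to 7 under cisplatin. Signs changed only among uncalled values: AXL with cisplatin in shPRMT1 cells (-0.036 to 0.069), AMOTL2 in the knockdown untreated (-0.16 to 0.12), under cisplatin (-0.23 to 0.062) and in the difference between responses (-0.21 to 0.082), and YAP1 in that difference (-0.093 to 0.004353).

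Of 354 values of the averaged comparisons under other settings, 334 kept their call, 13 lost it, 6 gained one and 1 changed sign; of 371 values of single shRNAs 47 lost their call, and of 309 of the list genes 14 did. With libraries left out, 59 of 832, 83 of 848 and 56 of 720 lost it. The 2 replicates per group limit precision, and the cause of each change was not tested.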
